A study of Mus musculus with 23 samples.

Results

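Lung tumor cells driven by BRAFV600E, alone or with PI3KαH1047R, were compared between 12 and 6 weeks after tumor initiation (post-initiation, p.i.). The 11 libraries of these time points were chosen by their labels and not by any measured value, out of 23 in the series. At 12 weeks there were 4 libraries, 2 from BRAFV600E and 2 from BRAFV600E/PI3KαH1047R tumors, and at 6 weeks there were 7, of which 3 were BRAFV600E and 4 were BRAFV600E/PI3KαH1047R. Both genotypes entered one comparison with genotype as a covariate, and each direction was also read inside each genotype.

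All mice carried one copy of *Braf* CAT, an allele that expresses BRAFV600E together with the red fluorophore tdTomato from the endogenous *Braf* promoter once CRE has acted. BRAFV600E/PI3KαH1047R mice also carried one copy of *Pik3ca* lat-H1047R, from which CRE activates the mutated p110α subunit of PI3-kinase. Mice were of a mixed genetic background of C57BL/6, 129 and FVB, were between 3 and 4 months old, and were infected through the airway with Ad5-*Sftpc*-CRE, an adenovirus that limits CRE to cells expressing *Sftpc*. Mice destined for 12 weeks received a lower titer than those for 6 weeks, so time and titer cannot be told apart. Each library came from tdTomato+ cells sorted from 1 animal. The labels give 4 females and 3 males at 6 weeks and 3 females and 1 male at 12 weeks.

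Alveolar type 2 (AT2) pneumocytes make and recycle pulmonary surfactant, carry MHC class II and divide to replace lost epithelium. Alveolar type 1 (AT1) pneumocytes are the thin cells of gas exchange, and AT2 cells that turn into AT1 cells pass through a keratin-rich transitional state. BRAFV600E drives ERK signaling and benign adenomas in this tissue, and the alveoli around a tumor hold resident macrophages, capillary endothelium and fibroblasts whose RNA can enter a sort.

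The 11 libraries held 16433800 to 20287300 normalized counts and 20671 to 21817 genes above 0. Pairs of libraries correlated with r of 0.793 to 0.929 across genes. BRAFV600E/PI3KαH1047R replicate 1 at 6 weeks and BRAFV600E/PI3KαH1047R replicate 1 at 12 weeks stood apart, with mean correlations of 0.857 and 0.861 to the other libraries, where the others had 0.878 to 0.908. *Braf* was between 2246 and 4332 normalized counts in all 11 libraries and *Pik3ca* between 1376 and 5933, the lowest being BRAFV600E/PI3KαH1047R replicate 1 at 12 weeks, and these values do not separate mutated from normal alleles. The Y-linked gene *Kdm5d* went against the sex labels of both BRAFV600E/PI3KαH1047R libraries at 12 weeks, with 502 normalized counts in replicate 1, a male by its label, and 4728 in replicate 2, a female by its label. The difference inside BRAFV600E is the value without these 2 libraries, and is given for most gene lists and for some of the single genes. The epithelial genes *Epcam* and *Cdh1* were present in every library, *Epcam* at 446 to 3023 normalized counts with the lowest value in BRAFV600E/PI3KαH1047R replicate 1 at 6 weeks.

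Over the whole transcriptome no gene separated the time points at the threshold used. Of 17510 genes tested with limma, 0 (0%) had a Benjamini-Hochberg adjusted p under 0.05 with both genotypes together, where the smallest adjusted p was 0.329. At an unadjusted p under 0.05 there were 535 genes (3.06%) higher at 12 weeks and 623 (3.56%) lower. The median log2 difference, 12 minus 6 weeks, was -0.00289 with a median SE of 0.370, and 49.7% of genes were higher at 12 weeks. By an exact permutation test over the 150 assignments of week labels within genotype, 953 genes (5.44%) had an unadjusted p under 0.05 and 136 (0.777%) the smallest p possible, 0.00667. The smallest Benjamini-Hochberg adjusted permutation p of any gene was 0.837, and the permutation p of single genes given here are unadjusted. Inside BRAFV600E 0 genes (0%) passed, with 724 at an unadjusted p under 0.05, and the smallest adjusted p was 1.00. Inside BRAFV600E/PI3KαH1047R 2 genes (0.0114%) passed and 845 had an unadjusted p under 0.05. The difference between the genotypes in their change passed in 0 genes (0%), with 554 at an unadjusted p under 0.05 and a smallest adjusted p of 0.0822. Across genes the changes in the 2 genotypes, which share no library, had the same sign in 57.0% of genes, with 28.1% higher and 28.9% lower in both, and a Pearson r of 0.186 that describes genes and not independent replicates.

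Both genes that passed the adjusted threshold inside BRAFV600E/PI3KαH1047R tumors were near-identical copies of *Rps18*, which encodes a protein of the small ribosomal subunit. Both were listed lower at 12 than at 6 weeks. *Gm10260* (chr13:97760072-97760632, minus strand, GRCm38, annotated as protein coding by GENCODE) had 57.4, 83.1, 60.4 and 144 normalized counts in the BRAFV600E/PI3KαH1047R libraries at 6 weeks and was listed at 0 in both at 12 weeks. *Rps18-ps3* (chr8:107262793-107263248, minus strand, a processed pseudogene) had 45.1, 88.2, 127 and 184 and was likewise listed at 0 in both. Each had an adjusted p of 0.000954 by limma with Benjamini-Hochberg adjustment inside BRAFV600E/PI3KαH1047R. In BRAFV600E tumors *Gm10260* had 146, 192 and 131 at 6 weeks and 112 and 125 at 12 weeks, and *Rps18-ps3* had 203, 179 and 163 against 92.6 and 97.7. No fold is given against a group listed at 0. The difference of this change between genotypes had an adjusted p of 0.0822 for *Gm10260* and 0.167 for *Rps18-ps3* and was under 0.05 for neither.

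The same 2 libraries had the highest values of *Rps18* itself (chr17:33951999-33956001, minus strand), with 980.3 and 1059 normalized counts against 496, 706, 181 and 256 in BRAFV600E/PI3KαH1047R at 6 weeks. Summed over the 3 loci the BRAFV600E/PI3KαH1047R libraries held 598, 878, 368 and 584 normalized counts at 6 weeks and 980 and 1059 at 12 weeks. The BRAFV600E libraries held 670, 648 and 458 at 6 weeks and 393 and 966 at 12 weeks. The coding sequences are shown because reads of 50 bases decide which locus receives a count. Over the 456 coding bases *Rps18-ps3* differed from *Rps18* at 3 positions (G181C, A337C and C430T, counted from the first base of the start codon, the base of *Rps18* first) and *Gm10260* at 4 (T186C, A337C, G371A and G431A). Of 407 windows of 50 bases, 68.8% were identical between *Rps18* and *Rps18-ps3* and 60.7% between *Rps18* and *Gm10260*, so the values of the 3 loci are uncertain one by one. The last 126 coding bases of each, from position 331 to 456, are given 5′ to 3′ from the GENCODE transcripts, with capitals in *Rps18* where a copy differs from it and in each copy at the bases that differ from *Rps18*.
Rps18: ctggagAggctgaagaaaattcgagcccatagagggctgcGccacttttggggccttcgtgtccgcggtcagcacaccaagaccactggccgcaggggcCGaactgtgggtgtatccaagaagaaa
Gm10260: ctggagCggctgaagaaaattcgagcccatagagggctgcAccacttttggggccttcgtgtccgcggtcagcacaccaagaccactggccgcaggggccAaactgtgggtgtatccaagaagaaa
Rps18-ps3: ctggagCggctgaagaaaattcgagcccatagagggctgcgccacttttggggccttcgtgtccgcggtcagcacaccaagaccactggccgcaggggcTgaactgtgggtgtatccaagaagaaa

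**Figure D1:**
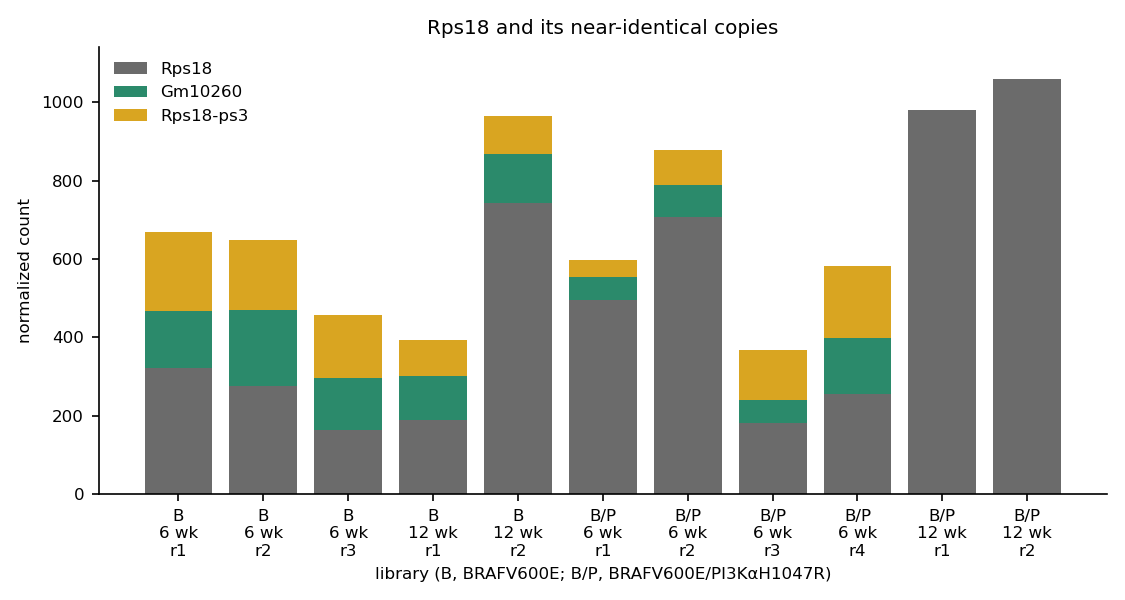
Normalized counts (y axis) of *Rps18* and its copies *Gm10260* and *Rps18-ps3*, stacked for each of the 11 libraries (x axis). Both copies are listed at 0 in the 2 BRAFV600E/PI3KαH1047R libraries at 12 weeks, where *Rps18* stands at 980 and 1059, and are above 0 in the other 9.

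Genes of AT2 cells lay higher at 12 weeks as a group, although none passed the adjusted threshold. Of 50 AT2 markers tested, 41 had a higher level at 12 weeks, and the median log2 difference was 0.49. Inside BRAFV600E the median was 0.33 and inside BRAFV600E/PI3KαH1047R 0.67, and 36 of the 50 were higher in both genotypes, where 28.1% of all genes were. At an unadjusted p under 0.05 there were 9 higher, where 3.06% of all genes were, and 0 lower, where 3.56% of all genes were. Inside BRAFV600E the mean log2 levels over the list of 12.1 and 12.6 at 12 weeks lay inside the 6 week range of 11.6 to 12.6. Leaving out single libraries moved the median between 0.32, without BRAFV600E/PI3KαH1047R replicate 2 at 12 weeks, and 0.67. In sorted bulk cells, fewer cells of a type and less RNA per cell cannot be told apart.

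*Sftpc*, which encodes surfactant protein C and whose promoter drives CRE here, had 82500, 221690 and 392700 normalized counts as the lowest, median and highest of the 7 libraries at 6 weeks and 251590 and 378090 in BRAFV600E and 256570 and 383010 in BRAFV600E/PI3KαH1047R at 12 weeks. Its log2 difference was 0.60 ± 0.32 (SE), and the groups overlapped. The surfactant protein gene *Sftpa1* had 66008, 165270 and 331230 at 6 weeks and 292050 and 463170 in BRAFV600E and 170090 and 234190 in BRAFV600E/PI3KαH1047R at 12 weeks, a difference of 0.71 ± 0.30. *Lyz2*, the lysozyme gene of AT2 cells and macrophages, had 46410, 77545 and 104600 at 6 weeks and 178620 and 221570 in BRAFV600E and 95612 and 123970 in BRAFV600E/PI3KαH1047R at 12 weeks. This was a log2 difference of 0.91 ± 0.22 with an exact permutation p of 0.0133 and an adjusted p of 0.693 by limma, and 3 of the 4 libraries at 12 weeks exceeded every library at 6 weeks. The surfactant-associated gene *Sfta2* was the one AT2 marker of 50 whose groups did not overlap, with 58.8, 147 and 215 at 6 weeks against 273, 269, 296 and 289 at 12 weeks (1.00 ± 0.32, exact permutation p 0.0133). Of all genes 0.417% lay above without overlap and 0.303% below. *Sftpb*, *Sftpd*, *Abca3*, *Napsa*, *Slc34a2* and *Lamp3*, which act in surfactant production, storage or phosphate transport, had log2 differences of 0.86, 0.80, 0.57, 0.75, 0.63 and 0.45, each with overlapping groups. *Cxcl15*, a chemokine of lung epithelium, differed by 0.94 ± 0.41, and the lineage factor *Nkx2-1* by 0.27 ± 0.23. The lowest AT2 level at 6 weeks was in BRAFV600E/PI3KαH1047R replicate 1, the library with the highest endothelial level. Without that library and BRAFV600E/PI3KαH1047R replicate 1 at 12 weeks the AT2 median was 0.42.

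AT1 genes had lower means at 12 weeks in both genotypes, in each of which 1 of the 2 libraries carried the difference. Of 40 AT1 markers tested, 32 were lower, with a median log2 difference of -0.56, of -0.48 inside BRAFV600E and of -0.51 inside BRAFV600E/PI3KαH1047R, and 30 were lower in both, where 28.9% of all genes were. There were 12 members lower and 1 higher at an unadjusted p under 0.05, beside 3.56% and 3.06% of all genes. *Col4a3*, which encodes a basement membrane collagen chain, had 4659.5, 5745 and 9279 normalized counts at 6 weeks and 3023 and 3888 in BRAFV600E and 2786 and 4278 in BRAFV600E/PI3KαH1047R at 12 weeks. All 4 values at 12 weeks lay below all 7 at 6 weeks, and the log2 difference was -0.78 ± 0.22 with an exact permutation p of 0.0133 and an adjusted p of 0.721 by limma. *Rtkn2*, used as an AT1 marker, had 665, 1570.2 and 4316 at 6 weeks and 1682 and 258 in BRAFV600E and 186 and 1175 in BRAFV600E/PI3KαH1047R at 12 weeks, with the 2 lowest values at 12 weeks in BRAFV600E replicate 2 and BRAFV600E/PI3KαH1047R replicate 1. *Cyp2b10*, a cytochrome P450 gene, had 1163, 1824 and 6766 at 6 weeks and 2145 and 259 in BRAFV600E and 9.15 and 697 in BRAFV600E/PI3KαH1047R at 12 weeks (-3.34 ± 1.05), and its 12 week values spanned from 9.15 to 2145. *Cav1*, the caveolin gene shared by AT1 cells and endothelium, differed by -1.56 ± 0.57, and the guidance ligand gene *Sema3a* by -1.06 ± 0.34.

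Members of the AT1 list differed among themselves. *Ager*, the receptor gene most used to mark AT1 cells, had 2698, 3289 and 3915 at 6 weeks and 2762, 2656, 2523 and 3563 at 12 weeks, a difference of -0.17 ± 0.15. *Hopx* differed by -0.51 ± 0.40 and *Clic5* by -0.64 ± 0.33, while *Aqp5*, the water channel gene, had a difference of 0.64 ± 0.35 in the other direction. The list's mean level was lowest in BRAFV600E/PI3KαH1047R replicate 1 and BRAFV600E replicate 2 at 12 weeks (10.3 and 10.4 as mean log2 of normalized count plus 1) and 11.3 and 11.4 in the other 2. At 6 weeks the BRAFV600E libraries ran from 11.004 to 11.7 and the BRAFV600E/PI3KαH1047R libraries from 11.2 to 11.9, so in each genotype 1 library at 12 weeks lay below the 6 week range and the other inside it. Without the 2 libraries that stand apart the AT1 median was -0.25. The endothelial and fibroblast lists were lower at 12 weeks as well, and their part in the AT1 difference was not tested.

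Transitional-state genes were higher at 12 weeks in 19 of 23 members, with a median of 0.40. The median was 0.51 inside BRAFV600E and 0.53 inside BRAFV600E/PI3KαH1047R. Leaving out single libraries moved the list's median between 0.34 (BRAFV600E replicate 2 at 6 weeks) and 0.62 (BRAFV600E/PI3KαH1047R replicate 4 at 6 weeks). It was 0.33 without the 2 libraries that stand apart. In each genotype 1 library at 12 weeks had a mean log2 level inside the 6 week range and the other lay above it. Those inside were BRAFV600E replicate 1 (8.75 in 8.57 to 9.18) and BRAFV600E/PI3KαH1047R replicate 2 (9.16 in 8.01 to 9.46). At an unadjusted p under 0.05 there were 2 higher and 1 lower of the 23, beside 3.06% and 3.56% of all genes. The keratin genes *Krt8*, *Krt18* and *Krt19* had log2 differences of 0.76 ± 0.41, 0.74 ± 0.52 and 0.49 ± 0.38. *Krt8* had 338, 1183 and 1836 normalized counts at 6 weeks and 1055, 2154, 2447 and 1885 at 12 weeks, so that 3 of the 4 libraries at 12 weeks lay above the highest at 6 weeks. *Tnip3*, a gene induced by NF-κB, had 252, 308 and 418 at 6 weeks and 490.2, 530.1, 838 and 426 at 12 weeks without overlap (0.83 ± 0.24, exact permutation p 0.00667). *Itgb6*, the β6 integrin gene, which both this list and the AT1 list hold, had 1514, 2369 and 3073 against 1426, 1712, 2067 and 1052 (-0.56 ± 0.24).

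**Figure D2:**
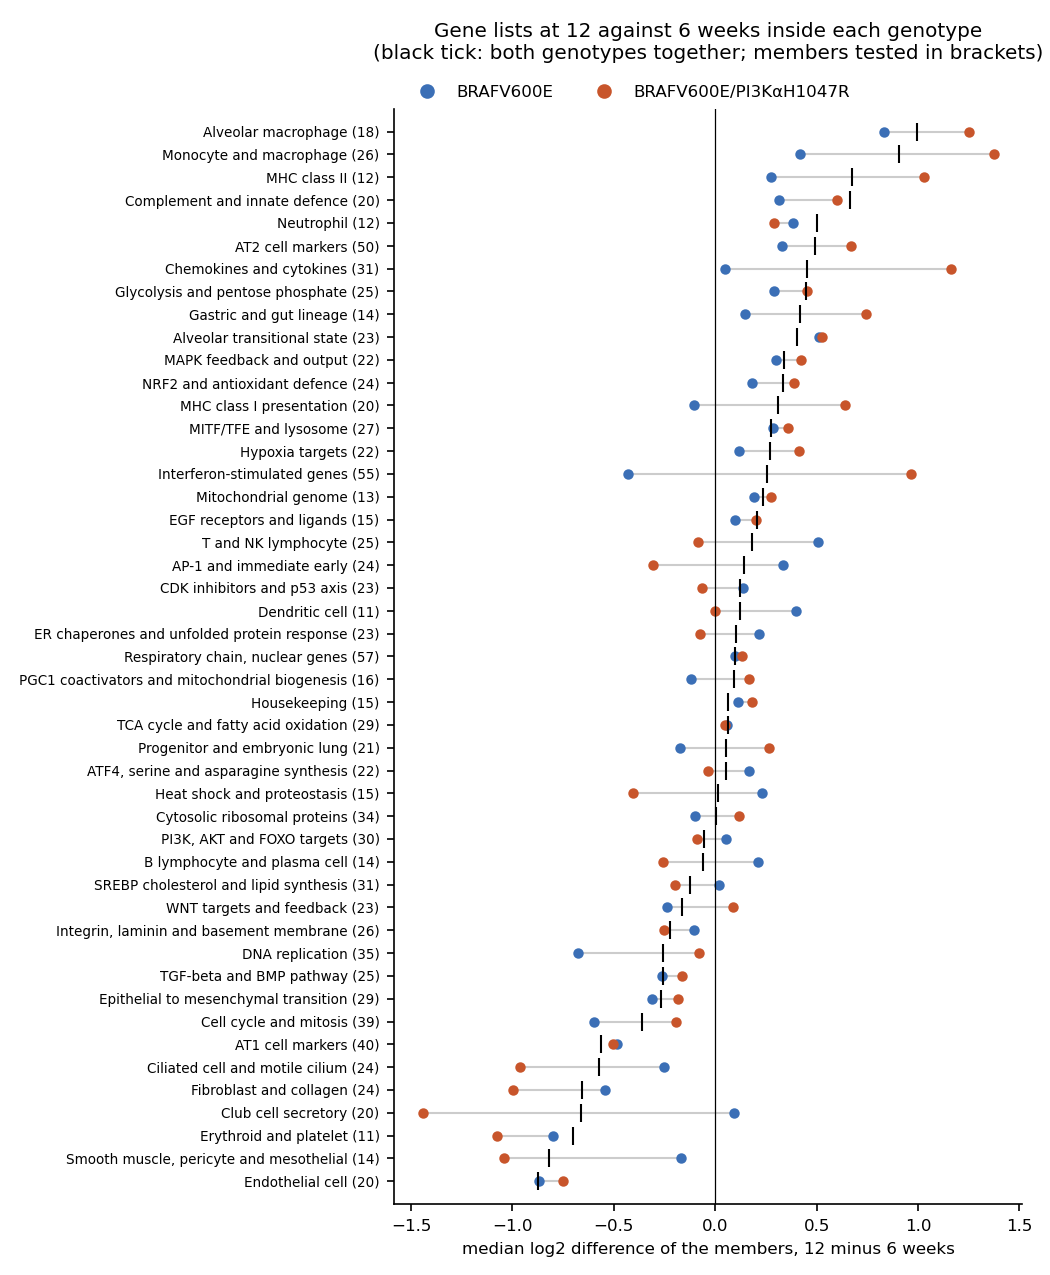
Median log2 difference, 12 minus 6 weeks (x axis), of the members of each gene list (y axis, number of members tested in brackets), inside BRAFV600E (blue) and BRAFV600E/PI3KαH1047R (orange), with both together as a black tick. Macrophage, MHC class II and AT2 lists lie to the right in both genotypes, AT1, fibroblast and endothelial lists to the left in both, and the interferon list lies at -0.43 in BRAFV600E and 0.97 in BRAFV600E/PI3KαH1047R.

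Genes of proliferation had lower medians at 12 weeks, and BRAFV600E replicate 1 at 12 weeks carried much of the difference. Of 39 cell cycle and mitosis genes, 31 were lower, with a median log2 difference of -0.36, of -0.60 inside BRAFV600E and of -0.19 inside BRAFV600E/PI3KαH1047R. Of 35 DNA replication genes, 28 were lower, with medians of -0.26, -0.68 and -0.08. In each list 5 members were lower and 0 higher at an unadjusted p under 0.05, where 3.56% of all genes were lower and 3.06% higher. In both genotypes 21 cell cycle and 13 replication genes were lower, where 28.9% of all genes were. Inside BRAFV600E/PI3KαH1047R 16 replication genes were higher and 19 lower. Both its 12 week mean log2 replication levels (7.01 and 6.93) lay inside its 6 week range of 6.79 to 7.26. BRAFV600E replicate 2 at 12 weeks had a cell cycle level of 7.15, inside the BRAFV600E 6 week range of 7.11 to 7.57. Its replication level of 6.95 lay below that of 7.03 to 7.51. *Tpx2*, a spindle assembly factor, had 167, 222 and 337 normalized counts at 6 weeks and 45.2 and 92.0 in BRAFV600E and 90.5 and 148 in BRAFV600E/PI3KαH1047R at 12 weeks. No library at 12 weeks reached the lowest at 6 weeks, and the log2 difference was -1.34 ± 0.33 with an adjusted p of 0.693 by limma. *Spc25*, a kinetochore gene, had 73.2, 87.6 and 143 against 11.1 and 27.5 in BRAFV600E and 71.1 and 71.3 in BRAFV600E/PI3KαH1047R, with a difference of -2.39 inside BRAFV600E and of -0.38 inside BRAFV600E/PI3KαH1047R. *Rrm2*, the ribonucleotide reductase subunit, had 75.8, 132 and 159 against 6.73, 46.3, 97.2 and 63.0 (-1.59 ± 0.49, exact permutation p 0.00667), and *Uhrf1*, which maintains DNA methylation, had 115, 175 and 448 against 11.2, 107, 54.7 and 103 (-1.83 ± 0.58).

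The usual proliferation markers overlapped between time points. *Mki67* had 494, 1659 and 2450.0 at 6 weeks and 595 and 1828 in BRAFV600E and 1211 and 899.6 in BRAFV600E/PI3KαH1047R at 12 weeks, a log2 difference of -0.67 ± 0.40. *Top2a* differed by -0.34 ± 0.41 and *Pcna* by -0.26 ± 0.23. *Plk4*, the kinase of centriole duplication, had 81.8, 133 and 253 against 53.9, 55.9, 80.9 and 65.2 without overlap (-1.15 ± 0.29), but its row repeats the values of the gene model *AC146980.2*. The CDK inhibitor gene *Cdkn1a* had 1704, 3954 and 6334 against 3918, 6532, 3599 and 5601 (0.57 ± 0.35). Among libraries at 6 weeks, BRAFV600E/PI3KαH1047R replicate 1 had the lowest cell cycle level, and without it and BRAFV600E/PI3KαH1047R replicate 1 at 12 weeks the cell cycle median was -0.55. At 12 weeks BRAFV600E replicate 1 was lowest, and leaving it out gave medians of -0.10 for the cell cycle list and -0.07 for the replication list, the closest to 0 of any single library left out.

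**Figure D3:**
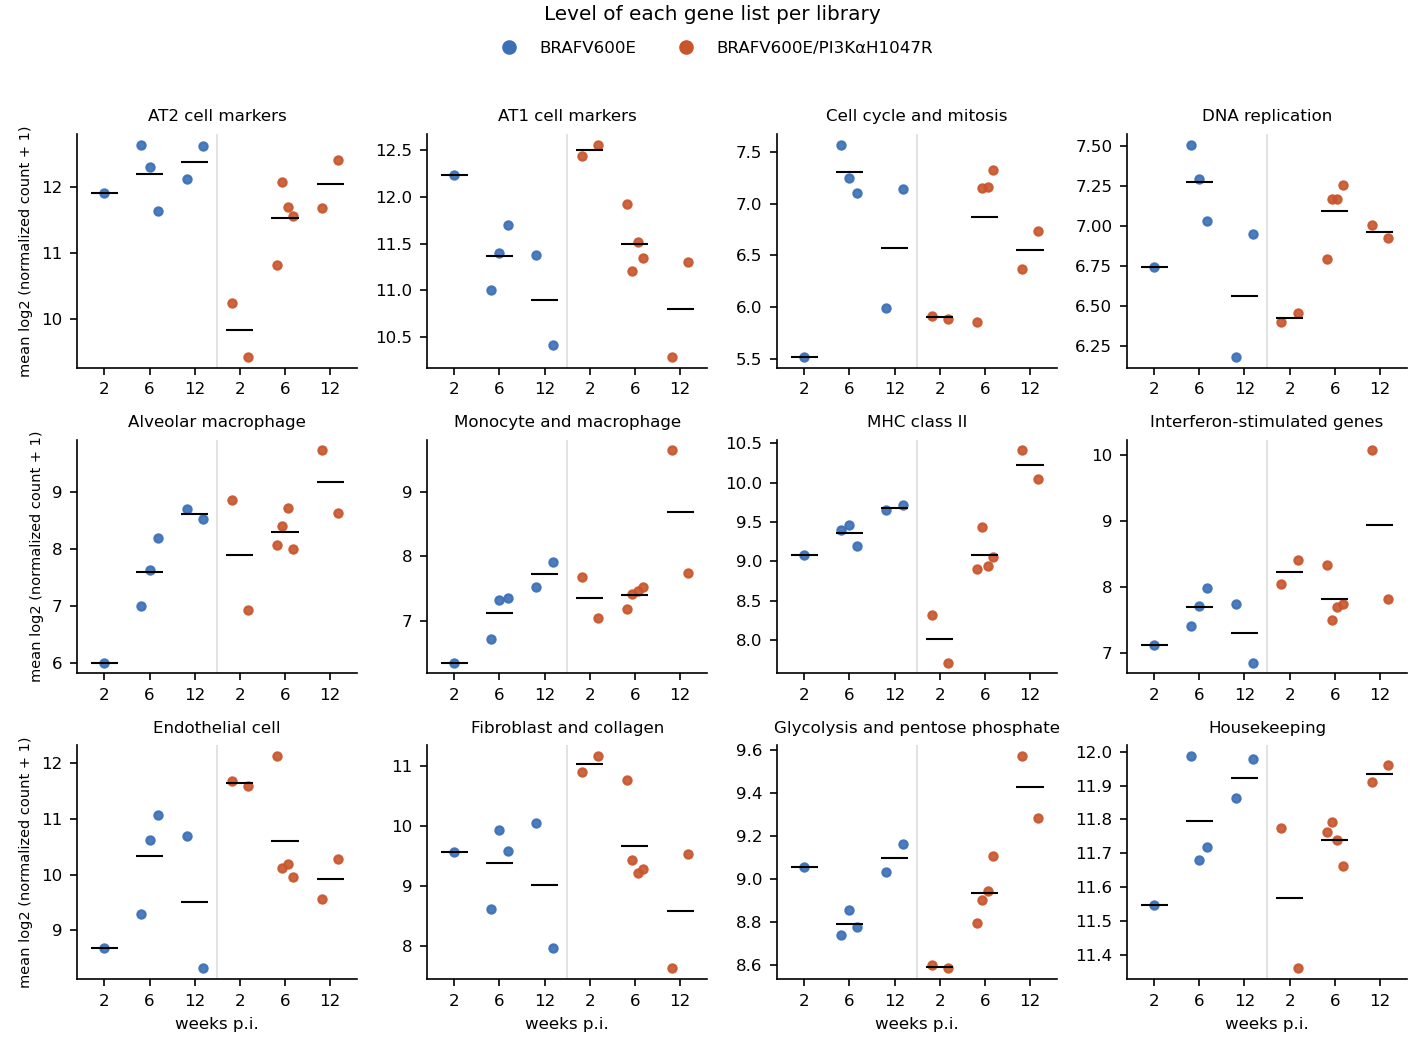
Mean log2 (normalized count + 1) of 12 gene lists (y axes) in each library at 2, 6 and 12 weeks p.i. (x axes), with BRAFV600E in blue, BRAFV600E/PI3KαH1047R in orange and the mean of a group as a bar. The macrophage and interferon panels show BRAFV600E/PI3KαH1047R replicate 1 at 12 weeks far above the other libraries, and the endothelial panel shows BRAFV600E/PI3KαH1047R replicate 1 at 6 weeks above the others of that time point.

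Macrophage genes had higher medians at 12 weeks in both genotypes, although 1 library carried the alveolar macrophage difference inside BRAFV600E/PI3KαH1047R. Of 18 alveolar macrophage markers tested, 16 were higher, with a median log2 difference of 0.99, of 0.83 inside BRAFV600E and of 1.25 inside BRAFV600E/PI3KαH1047R, and 11 were higher and 0 lower at an unadjusted p under 0.05 (3.06% and 3.56% of all genes). Of 26 monocyte and macrophage genes, 23 were higher, with medians of 0.90, 0.42 and 1.37, and again 11 were higher and 0 lower at that threshold. The second list also holds *Lyz2*, which AT2 cells express, and *Ctsd*, a general lysosomal gene. In BRAFV600E/PI3KαH1047R at 12 weeks the mean log2 level of the alveolar macrophage list was 9.74 in replicate 1. It was 8.64 in replicate 2, inside that genotype's 6 week range of 8.00 to 8.72. The monocyte and macrophage levels of both, 9.64 and 7.74, lay above the range of 7.19 to 7.53. The summed level of the alveolar macrophage list ran from 8241 to 16969 normalized counts at 6 weeks and from 16046 to 44895 at 12 weeks, and *Siglecf* of this list was not analysed here. *Chil3*, a chitinase-like gene of alveolar macrophages, had 1345, 2029 and 4172 normalized counts at 6 weeks and 3667 and 4252 in BRAFV600E and 21059 and 4279.6 in BRAFV600E/PI3KαH1047R at 12 weeks. Its log2 difference was 1.64 ± 0.41 with an exact permutation p of 0.00667, and 3 of the 4 libraries at 12 weeks exceeded the highest at 6 weeks. *Ear2*, an eosinophil-associated ribonuclease gene of alveolar macrophages, had 149, 779 and 1628 against 1572, 1399.6, 3932 and 1715 (1.69 ± 0.49), and the mannose receptor gene *Mrc1* had 138, 325 and 724 against 828, 620.3, 1134 and 677 (1.19 ± 0.34). *Fabp4*, a fatty acid binding protein gene, differed by 2.52 ± 0.81 and the chemokine gene *Ccl6* by 1.86 ± 0.57. The part of macrophages in the sort in these differences was not tested, and *Chil3* was well above 0 in every library at both time points.

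*C1qa* and *C1qb*, subunits of complement C1q made by macrophages, did not overlap between time points. *C1qb* had 8.56, 23.2 and 52.0 at 6 weeks and 90.3 and 86.7 in BRAFV600E and 290.4 and 76.7 in BRAFV600E/PI3KαH1047R at 12 weeks, a difference of 2.26 ± 0.46 with an adjusted p of 0.693 by limma, and *C1qa*, listed at 0 in 2 libraries at 6 weeks, had 0, 4.24 and 17.4 against 31.4, 19.9, 144 and 20.3. The monocyte gene *Ly6c2* had 163, 313 and 379.9 against 481, 650.3, 2058 and 454 (1.50 ± 0.41), without overlap. *Adgre1*, which encodes F4/80, had 7.48, 38.2 and 87.7 against 70.5, 122, 723 and 132 (2.35 ± 0.71), and *Cd68* 80.3, 211 and 420.1 against 304, 391, 1439 and 325 (1.24 ± 0.50). Other defining markers did not follow. *Csf1r* differed by -0.24 ± 0.45, the pan-leukocyte gene *Ptprc* by 0.02 ± 0.37, and *Marco* by 0.48 ± 0.59 with -0.48 inside BRAFV600E and 1.35 inside BRAFV600E/PI3KαH1047R, so that *Marco* changes sign without the BRAFV600E/PI3KαH1047R libraries at 12 weeks. For *Adgre1*, *Cd68*, *C1qb*, *Chil3* and *Ly6c2* the highest of all 11 values was in BRAFV600E/PI3KαH1047R replicate 1 at 12 weeks. Without that library the medians were 0.76 for the alveolar macrophage list and 0.42 for the monocyte and macrophage list.

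Antigen presentation genes followed by class. Of 12 MHC class II genes, 11 were higher at 12 weeks with a median of 0.67, of 0.28 inside BRAFV600E and of 1.03 inside BRAFV600E/PI3KαH1047R, and 5 were higher and 0 lower at an unadjusted p under 0.05 (3.06% and 3.56% of all genes). *H2-Eb1* had 58.8, 115 and 708 normalized counts at 6 weeks and 111 and 1171 in BRAFV600E and 1799.8 and 1594 in BRAFV600E/PI3KαH1047R at 12 weeks, so that BRAFV600E replicate 1 at 12 weeks lay at the 6 week median while the other 3 lay above all 7. *H2-Ab1* had 1997, 4147 and 7586 against 4881, 8089, 11067 and 9896 (0.87 ± 0.35), the invariant chain gene *Cd74* 11671, 30544 and 54403 against 39568, 60790, 55282 and 50873 (0.78 ± 0.31), and *H2-Aa* 6212, 17308 and 34760 against 24346, 29265, 18132 and 15901 (0.30 ± 0.28). The class II transactivator gene *Ciita* differed by 0.73 ± 0.39 and the cathepsin gene *Ctss* by 1.63 ± 0.47. AT2 cells and macrophages both express this class, and their shares were not tested. Of 20 MHC class I genes, 17 were higher with a median of 0.31, but of -0.11 inside BRAFV600E and of 0.64 inside BRAFV600E/PI3KαH1047R. *H2-K1* had 11303 and 7287 in BRAFV600E and 51016 and 12272 in BRAFV600E/PI3KαH1047R at 12 weeks against 6376 to 13123 at 6 weeks, so a single library lay outside the 6 week range.

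Interferon-stimulated genes had medians of opposite sign in the genotypes, and this difference was not tested for the list. Of 55 tested, 40 were higher with both genotypes together (median 0.26), 41 were lower inside BRAFV600E (median -0.43) and 51 were higher inside BRAFV600E/PI3KαH1047R (median 0.97). *Isg15*, a ubiquitin-like protein gene, had 36.6, 58.3 and 95.4 at 6 weeks and 62.1 and 40.9 in BRAFV600E and 503 and 74.5 in BRAFV600E/PI3KαH1047R at 12 weeks. *Cxcl9*, a chemokine gene induced by interferon-γ, had 4.51, 24.1 and 240.4 against 86.7 and 118 in BRAFV600E and 10022 and 682 in BRAFV600E/PI3KαH1047R, and *Rsad2*, an antiviral enzyme gene, 12.4, 47.6 and 66.7 against 18.8, 239.6, 1112 and 125. BRAFV600E/PI3KαH1047R replicate 1 at 12 weeks was the highest library for each of these 3 genes, and without it the list's median was -0.24. The median inside BRAFV600E/PI3KαH1047R, and with it the contrast between genotypes, was carried by this library, whose mean log2 level over the list was 10.1, while BRAFV600E/PI3KαH1047R replicate 2 at 12 weeks had 7.81, inside the BRAFV600E/PI3KαH1047R range of 7.495 to 8.33 at 6 weeks. The lower median inside BRAFV600E was likewise carried by replicate 2 at 12 weeks, with a level of 6.85, while replicate 1 had 7.74, inside the BRAFV600E range of 7.40 to 7.99 at 6 weeks.

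Chemokine and cytokine genes were higher in 25 of 31 members with a median of 0.45, of 0.05 inside BRAFV600E and of 1.16 inside BRAFV600E/PI3KαH1047R. *Cxcl17*, a mucosal chemokine gene, had 43.2, 103 and 149.7 at 6 weeks and 262, 227, 421 and 117 at 12 weeks (1.37 ± 0.42), and the interleukin gene *Il1a* had 9.51, 25.4 and 90.0 against 45.8, 143, 219 and 81.6 (1.79 ± 0.58). *Cxcl2*, which draws neutrophils, had 1.05, 8.96 and 42.8 against 17.3, 77.2, 81.3 and 29.4 (2.16 ± 0.81). *Ccl3*, a macrophage chemokine gene, had 1.01, 6.38 and 124 against 61.8, 90.7, 204 and 29.3 (2.50 ± 1.08), and both were close to 1 in the lowest library at 6 weeks. Without BRAFV600E/PI3KαH1047R replicate 1 at 12 weeks the list's median was 0.18 and that of MHC class I 0.14. Of 20 complement and innate defence genes 13 were higher, with a median of 0.66 that was 0.32 inside BRAFV600E and 0.39 without BRAFV600E/PI3KαH1047R replicate 1 at 6 weeks. The protease inhibitor gene *Slpi* had 36.9, 76.3 and 368 against 242, 670.0, 438 and 467 (2.00 ± 0.57, exact permutation p 0.0133), the acute phase gene *Saa3* 8481, 11685 and 22246 against 17174, 25531, 37755 and 19312 (0.94 ± 0.27), and the peptidoglycan receptor gene *Pglyrp1* 112, 244 and 486 against 553, 781, 361 and 589 (0.98 ± 0.35). *Slpi* and *Saa3* overlapped between time points, with 3 and 2 of the 4 libraries at 12 weeks above all 7 at 6 weeks.

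Most endothelial and fibroblast genes had lower mean levels at 12 weeks, carried by single libraries, while smooth muscle and mesothelial genes went both ways. Of 20 endothelial genes, 18 were lower with a median of -0.87, of -0.87 inside BRAFV600E and of -0.75 inside BRAFV600E/PI3KαH1047R, but 1 was lower and 0 higher at an unadjusted p under 0.05, where 3.56% of all genes were lower. The summed level of these 20 genes ran from 33734 to 253445 normalized counts at 6 weeks and from 15851 to 89394 at 12 weeks, and none of the defining markers was at 0 in any library. *Pecam1*, the endothelial adhesion gene CD31, had 2208, 4511 and 16965 at 6 weeks and 7019.8 and 1264 in BRAFV600E and 2642 and 3932 in BRAFV600E/PI3KαH1047R at 12 weeks (-0.69 ± 0.55), and *Cdh5*, the cadherin of endothelial junctions, had 2694, 7007 and 24395 against 9458, 1531, 2259.9 and 5992 (-1.06 ± 0.60). *Calcrl*, the adrenomedullin receptor gene, had 16749, 31995 and 130720 against 43871, 7066, 7802 and 21011 (-1.34 ± 0.61). *Vwf* was an exception, with 917, 1091 and 2120.1 against 1588, 491, 3137 and 2673 and a difference of 0.43 ± 0.42, -0.48 inside BRAFV600E and 1.25 inside BRAFV600E/PI3KαH1047R. The values overlapped in each of these genes, and without BRAFV600E replicate 2 at 12 weeks the list's median was -0.36, and without BRAFV600E replicate 1 it was -1.32.

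Of 24 fibroblast and collagen genes, 21 were lower with a median of -0.66, of -0.54 inside BRAFV600E and of -0.995 inside BRAFV600E/PI3KαH1047R, and 21 were lower in both genotypes, while 4 were lower and 0 higher at an unadjusted p under 0.05, where 3.56% of all genes were lower. Their summed level ran from 51417 to 142406 at 6 weeks and from 29778 to 82454 at 12 weeks, and without BRAFV600E/PI3KαH1047R replicate 1 at 12 weeks the median was -0.42. The mean log2 level over the list was 7.97 in BRAFV600E replicate 2 and 7.63 in BRAFV600E/PI3KαH1047R replicate 1 at 12 weeks, below every library at 6 weeks. It was 10.04 in BRAFV600E replicate 1, above all 3 BRAFV600E libraries at 6 weeks, and 9.53 in BRAFV600E/PI3KαH1047R replicate 2, above 3 of 4, so 1 library carried the lower value in each genotype. *Col6a3* differed by -1.35 ± 0.51, the lipofibroblast transcription factor *Tcf21* by -1.81 ± 0.74, and *Inmt*, a methyltransferase gene of lung fibroblasts, by -2.54 ± 1.09, the last with 46.4 to 5958 normalized counts at 12 weeks. *Dcn*, a matrix proteoglycan gene, went the other way with 153, 353 and 697 against 797, 279.6, 1251 and 603 (0.94 ± 0.43). Of 14 smooth muscle, pericyte and mesothelial genes 8 were lower and 6 higher, where 49.7% of all genes were higher. The contractile genes *Acta2*, *Myh11* and *Tagln* were among the lower ones. *Tagln* had 164, 307 and 427 against 167, 141, 126 and 83.6 (-1.14 ± 0.33), *Acta2* 232, 394 and 942 against 328, 73.1, 109 and 139 (-1.39 ± 0.45), and *Myh11* 269, 605 and 1334 against 476, 71.0, 17.7 and 279 (-2.33 ± 0.77). Among the higher ones were the pericyte gene *Rgs5*, with 104, 232 and 542 against 689, 44.9, 1505 and 1078 (1.05 ± 0.73, -0.16 inside BRAFV600E and 2.14 inside BRAFV600E/PI3KαH1047R), and the mesothelial gene *Upk3b*, with 3.10, 20.1 and 64.9 against 97.9, 7.22, 21.7 and 119 (0.88 ± 0.86). The list's median of -0.82 was -0.17 inside BRAFV600E and -1.04 inside BRAFV600E/PI3KαH1047R, and -0.07 without the 2 libraries that stand apart. Erythroid and platelet genes were lower in 10 of 11 members with a median of -0.70 (-0.80 inside BRAFV600E), with *Hba-a1*, an α-globin gene that shares sequence with *Hba-a2*, at 32.5, 75.6 and 198 against 52.5, 79.9, 12.9 and 38.2.

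Airway genes had the lower medians inside BRAFV600E/PI3KαH1047R, a difference between genotypes that was not tested. Of 24 ciliated cell genes 21 were lower, with medians of -0.25 inside BRAFV600E and of -0.96 inside BRAFV600E/PI3KαH1047R, and *Foxj1*, the master factor of motile cilia, was listed at 0 in BRAFV600E/PI3KαH1047R replicate 1 at 12 weeks. *Hydin*, a motile cilium gene, had 49.6, 133 and 323 at 6 weeks and 67.6, 31.5, 32.7 and 87.5 at 12 weeks (-1.44 ± 0.52). Of 20 club cell genes 13 were lower with a median of -0.66, which was -1.44 inside BRAFV600E/PI3KαH1047R. Inside BRAFV600E it was 0.09, with 11 members higher and 9 lower. The secretoglobin gene *Scgb3a1* and the mucin gene *Muc5b* were among the 7 higher ones with both genotypes together (1.09 ± 1.00 and 0.38 ± 0.49). *Scgb1a1*, the secretoglobin of club cells, had 3223, 5446 and 9846 against 4963 and 3191 in BRAFV600E and 345 and 3488 in BRAFV600E/PI3KαH1047R, and *Gabrp*, a GABA receptor subunit gene, had 42.4, 67.0 and 85.3 against 26.0 and 36.4 in BRAFV600E and 1.76 and 26.3 in BRAFV600E/PI3KαH1047R without overlap (-1.97 ± 0.62). BRAFV600E/PI3KαH1047R replicate 1 was the lowest at 12 weeks for both genes, and without that library the median was -0.01 for the club cell list and -0.21 for the ciliated list. Without both libraries that stand apart the club cell median was 0.26. Of 14 gastric and gut lineage genes 10 were higher with a median of 0.42, which was 0.15 inside BRAFV600E and 0.13 without BRAFV600E/PI3KαH1047R replicate 1 at 6 weeks. *Hnf4a*, a gut lineage factor, had 37.9, 170.3 and 509.8 against 391, 290.4, 264 and 273 (0.83 ± 0.59), and *Pigr*, the immunoglobulin transporter gene, 38.0, 56.7 and 107 against 152, 86.2, 187 and 149 (1.11 ± 0.35, exact permutation p 0.0133).

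Signaling genes of the engineered pathways showed small differences. Of 22 MAPK feedback and output genes 16 were higher with a median of 0.34, of 0.30 inside BRAFV600E and of 0.42 inside BRAFV600E/PI3KαH1047R, and of 0.17 without BRAFV600E/PI3KαH1047R replicate 1 at 6 weeks. *Ccnd1*, the cyclin D1 gene, had 4083, 7069.7 and 8587 normalized counts at 6 weeks and 9585, 12823, 7978 and 10716 at 12 weeks (0.64 ± 0.24), and the ERK phosphatase gene *Dusp6* and the inhibitor gene *Spry2* differed by 0.49 ± 0.37 and 0.35 ± 0.33. Of 30 PI3K, AKT and FOXO genes 19 were lower with a median of -0.06, which was 0.05 inside BRAFV600E and -0.09 inside BRAFV600E/PI3KαH1047R. This median ran from -0.13 to -0.01 with single libraries left out and was 0.05 without the 2 libraries that stand apart. The regulatory subunit gene *Pik3r1* differed by -0.56 ± 0.34 and the insulin receptor gene *Insr* by 0.26 ± 0.13, with 3857, 4095 and 4554 at 6 weeks and 4608, 4597, 5054 and 5702 at 12 weeks and no overlap. *Egfr*, the EGF receptor gene, was lower, with 301, 586 and 1743 at 6 weeks and 613 and 61.3 in BRAFV600E and 109 and 290.2 in BRAFV600E/PI3KαH1047R at 12 weeks. The values of 61.3 and 109 are from the libraries with the lowest AT1 and fibroblast levels at 12 weeks, a link that was not tested. Of the others, 290.2 also lay below the lowest *Egfr* value at 6 weeks and 613 above the median. *Egfr* thus overlapped between time points. Its log2 difference was -1.88 ± 0.61 with -1.95 inside BRAFV600E and -1.81 inside BRAFV600E/PI3KαH1047R, an exact permutation p of 0.02 and an adjusted p of 0.741 by limma. Its ligand gene *Ereg* had 389, 3887 and 7908 against 3959, 12328, 9182 and 3220.0 (1.23 ± 0.76).

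Ligands and matrix genes differed one by one. The WNT ligand gene *Wnt7a* had 101, 154 and 253 at 6 weeks and 209, 187, 380.0 and 456 at 12 weeks (0.87 ± 0.33), whereas *Wnt3a* had 14.5, 40.5 and 92.6 against 52.1, 1.19, 1.08 and 10.2 (-2.47 ± 0.86), and the WNT factor gene *Tcf7* had 185, 272 and 554 against 345, 51.0, 45.2 and 228 (-1.33 ± 0.54). *Tgfb1* had 343, 417 and 639 against 337, 334, 284 and 318 without overlap (-0.41 ± 0.22). Of 23 WNT genes 13 and of 25 TGF-beta and BMP genes 15 were lower, with medians of -0.16 and -0.26 that were -0.24 and -0.26 inside BRAFV600E, 0.09 and -0.16 inside BRAFV600E/PI3KαH1047R, and 0.03 and -0.04 without BRAFV600E/PI3KαH1047R replicate 1 at 6 weeks. Of 26 integrin, laminin and basement membrane genes 19 were lower with a median of -0.22 (-0.10 inside BRAFV600E, and -0.13 without BRAFV600E replicate 2 at 12 weeks), among them *Itga1* (-1.14 ± 0.49) and *Lamc1* (-0.40 ± 0.17). *Vegfa*, which AT1 and AT2 cells secrete to endothelium, had 4839.5, 7095 and 15435 against 6658, 2952, 4642 and 5949 (-0.70 ± 0.33), and *Epas1*, the endothelium-rich hypoxia factor, 15835, 29722 and 93657 against 35469, 11949, 7924 and 27579 (-0.91 ± 0.50).

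Genes of glucose use were higher at 12 weeks. Of 25 glycolysis and pentose phosphate genes 21 were higher with a median of 0.45, of 0.29 inside BRAFV600E and of 0.45 inside BRAFV600E/PI3KαH1047R, and 7 were higher and 0 lower at an unadjusted p under 0.05 (3.06% and 3.56% of all genes). The median stayed between 0.35 and 0.52 whichever single library was removed. *Pgd*, an enzyme gene of the pentose phosphate pathway, had 652, 1304 and 1619.8 normalized counts at 6 weeks and 1531 and 2444 in BRAFV600E and 2530.5 and 2627 in BRAFV600E/PI3KαH1047R at 12 weeks, a log2 difference of 0.93 ± 0.26 with an exact permutation p of 0.00667 and an adjusted p of 0.721 by limma. Only BRAFV600E replicate 1 at 12 weeks overlapped the 6 week range. *Pgk1* had 680.2, 767 and 1065 against 806, 1218, 1544 and 1339 (0.59 ± 0.21), *Aldoa* 1943, 2559 and 3258 against 3361, 2708, 4564 and 3416 (0.45 ± 0.16) and *Hk2* 102, 458 and 641 against 678, 1115, 1252 and 583 (1.11 ± 0.44), which encode enzymes of glycolysis. *Gapdh*, *Pkm*, *Ldha* and the glucose transporter gene *Slc2a1* had differences of 0.60 ± 0.25, 0.45 ± 0.20, 0.51 ± 0.31 and 0.87 ± 0.46. *Gapdh* is often taken as a reference gene, and the 15 housekeeping genes had a median of 0.06 (0.11 inside BRAFV600E). Of these 15 genes 11 were higher, and 3 were higher and 0 lower at an unadjusted p under 0.05. Their mean log2 levels ran from 11.66 to 11.99 at 6 weeks and from 11.86 to 11.98 at 12 weeks. The housekeeping genes are therefore not a flat reference for the glucose genes.

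Lysosome genes were higher in 23 of 27 members, with a median of 0.28 that was likewise 0.28 inside BRAFV600E and lay at 0.25 to 0.34 with single libraries left out. BRAFV600E/PI3KαH1047R replicate 1 had the highest lysosome level at 12 weeks and replicate 3 that at 6 weeks. Each also had the highest alveolar macrophage level of its time point. BRAFV600E replicate 2, next highest in lysosome level at 12 weeks, had the lowest macrophage level there. The part of macrophages in the lysosome difference was not tested. *Ctsd*, the cathepsin D gene, had 2759, 2976 and 4403 at 6 weeks and 3699.6, 5983, 5481 and 4846 at 12 weeks (0.58 ± 0.19), and *Hexa*, a hexosaminidase gene, 324, 383 and 436 against 376, 522, 649 and 630.4 (0.51 ± 0.20). Of 24 NRF2 and antioxidant genes 17 were higher with a median of 0.33 (0.18 inside BRAFV600E). The heme oxygenase gene *Hmox1* had 174, 379 and 565 against 563, 732, 578 and 794 (0.80 ± 0.31), 3 of 4 values at 12 weeks lying above all 7 at 6 weeks, and *Gclc*, which makes glutathione precursors, differed by 0.70 ± 0.33. *Ppargc1a*, which encodes the mitochondrial coactivator PGC1α, had 117, 301 and 1088 against 408 and 349.5 in BRAFV600E and 75.5 and 415 in BRAFV600E/PI3KαH1047R and a difference of -0.78 ± 0.44. Its values were lower inside BRAFV600E (-1.25), with all 3 libraries at 6 weeks above both at 12 weeks, and overlapped inside BRAFV600E/PI3KαH1047R (-0.35). The 57 nuclear and 13 mitochondrial genes of the respiratory chain had medians of 0.10 and 0.23, and of 0.10 and 0.19 inside BRAFV600E. The nuclear median was -0.03 without BRAFV600E/PI3KαH1047R replicate 2 at 12 weeks and the mitochondrial one 0.14 without BRAFV600E/PI3KαH1047R replicate 1 at 12 weeks.

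**Figure D4:**
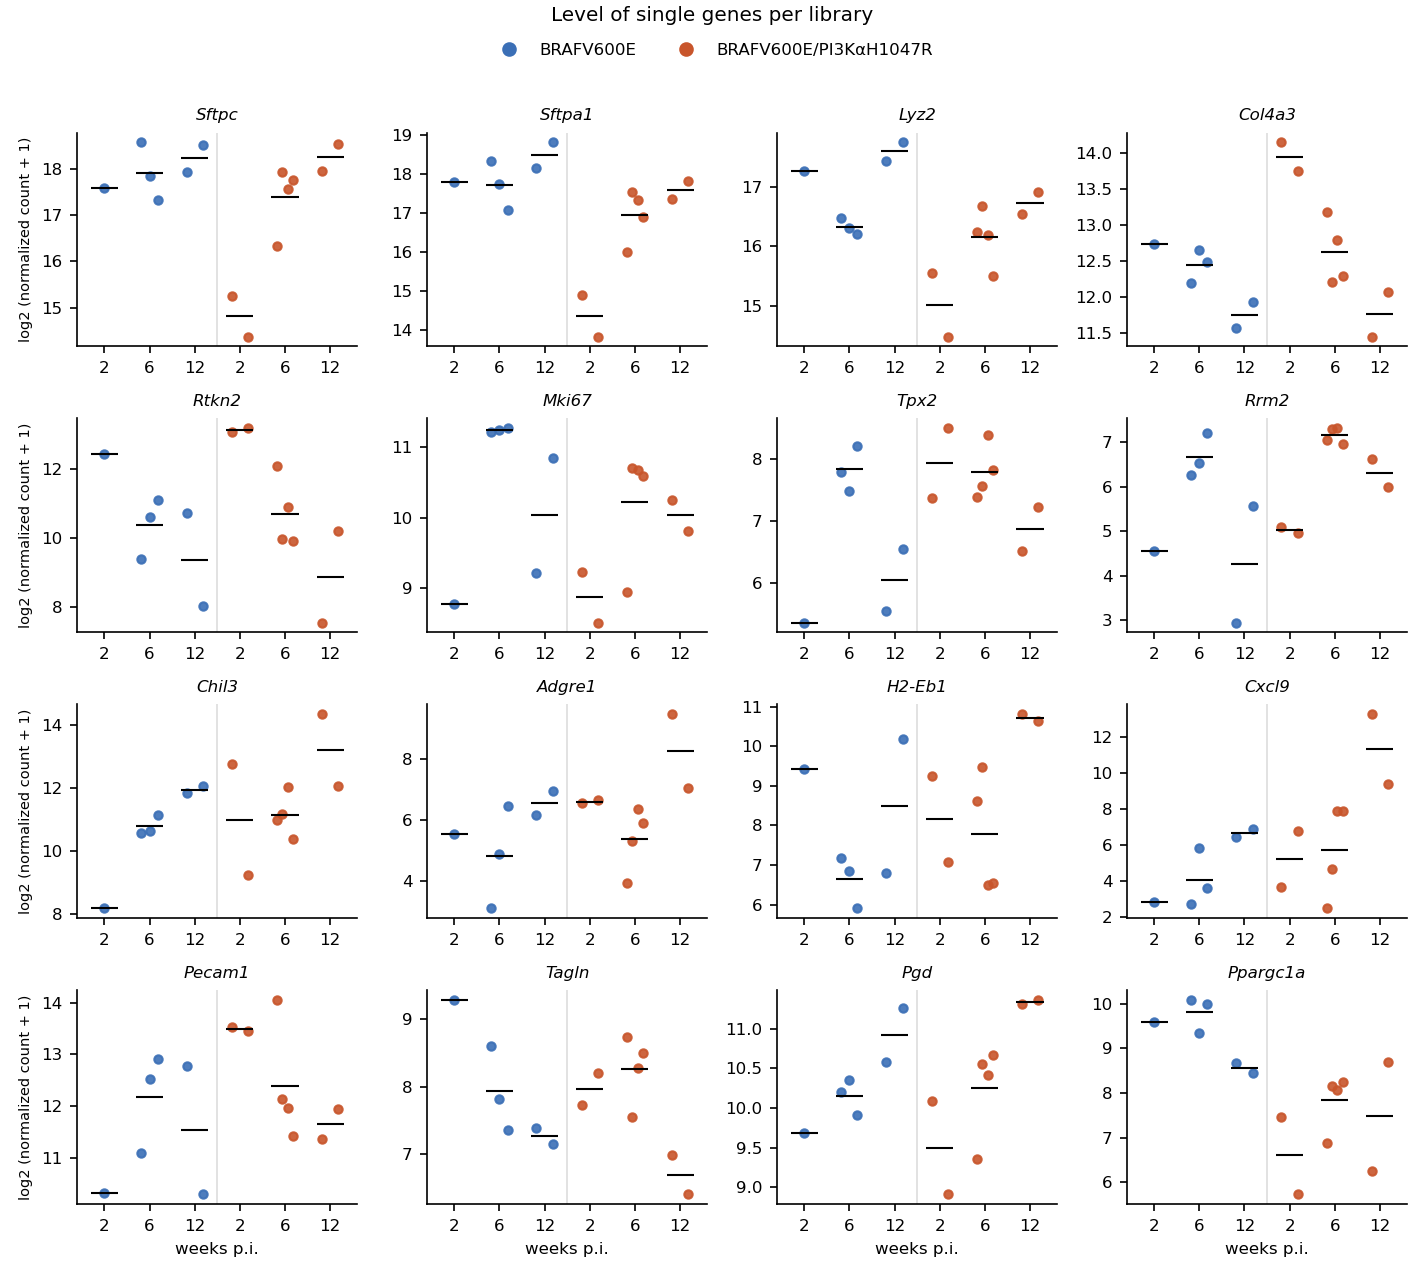
Log2 (normalized count + 1) of 16 genes (y axes) in each library at 2, 6 and 12 weeks p.i. (x axes), with BRAFV600E in blue, BRAFV600E/PI3KαH1047R in orange and group means as bars. *Col4a3* and *Tpx2* have all 4 libraries at 12 weeks below all 7 at 6 weeks, while *Sftpc*, *Mki67* and *Pecam1* overlap.

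Single genes whose libraries did not overlap between the time points were few. All 4 libraries at 12 weeks lay above all 7 at 6 weeks in 73 genes (0.417%) and below in 53 (0.303%). Some of 17510 genes separate in this way by chance, and an excess over chance was not tested. Neither count is therefore evidence of a change with time. At a mean of at least 40 normalized counts there were 57 above and 46 below, of which 7 and 3 are predicted gene models or pseudogenes. Of those above, the 12 with the smallest p by limma are named here, and likewise 12 of those below.

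*Slc7a5*, a transporter of large neutral amino acids, had 85.6, 175 and 266 normalized counts at 6 weeks and 547 and 413 in BRAFV600E and 496 and 268 in BRAFV600E/PI3KαH1047R at 12 weeks (1.33 ± 0.32). *Slc7a2*, a cationic amino acid transporter gene that is also in the alveolar macrophage list, had 563, 765 and 1127 against 1886, 1508, 4349 and 1642 (1.39 ± 0.30). *Cybrd1*, an iron reductase gene, had 425, 693 and 1001 against 1895, 1033, 1136 and 2099.9 (1.15 ± 0.26), with the lowest value at 12 weeks just above the highest at 6 weeks. The zinc transporter gene *Tmem163* had 503, 828 and 939 against 2156, 1517, 1533 and 1438, with a difference of 1.09 inside BRAFV600E and of 0.97 inside BRAFV600E/PI3KαH1047R. *Prg4*, the lubricin gene, had the highest difference of the 12, 3.02 ± 0.60, from 5.64, 17.9 and 32.8 at 6 weeks to 130.4, 79.6, 534 and 88.4 at 12 weeks. *Csf2ra*, the GM-CSF receptor subunit by which macrophages and AT2 cells sense this cytokine, had 42.9, 82.4 and 139.6 against 140.3, 431, 307 and 285 (1.75 ± 0.40). *Lynx1*, *Nudt14*, *Vars2*, *Mok* and *Gm15899* had differences of 1.21, 1.04, 1.81, 1.56 and 1.51, and *C1qb* is described above. By limma with Benjamini-Hochberg adjustment each of the 12 had an adjusted p of 0.693.

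Among the lower ones *Pcdhgb8*, a γ-protocadherin gene of a cluster with shared exons, had the smallest p of all genes with both genotypes together. It had 84.2, 125 and 192 normalized counts at 6 weeks and 47.8 and 25.0 in BRAFV600E and 20.9 and 26.8 in BRAFV600E/PI3KαH1047R at 12 weeks, a difference of -2.08 ± 0.33 with an adjusted p of 0.329 by limma. The difference was -1.89 inside BRAFV600E and -2.25 inside BRAFV600E/PI3KαH1047R, directions that the lack of overlap fixes, and the reads of its shared exons may be split among genes of the cluster. *Col27a1*, a fibrillar collagen gene, had 119.8, 203 and 250.0 against 119, 39.1, 47.7 and 95.6 (-1.47 ± 0.34). *Casc4* had 2669.7, 3764 and 9449 against 1812, 1383, 695 and 1960.3 (-1.72 ± 0.41), and the adhesion receptor gene *Adgra3* 563, 759 and 843 against 431, 446, 510.2 and 392 (-0.69 ± 0.18). *Mill2*, an MHC class I-like gene, differed by -0.93 ± 0.24, the ubiquitin ligase gene *Rmnd5a* by -0.69 ± 0.19, the kinase gene *Nim1k* by -1.19 ± 0.30 and the gene model *Gm14681* by -0.96 ± 0.26. *Tpx2*, *Plk4* and *Col4a3*, given above, complete the 12, with *AC146980.2* as the repeat of *Plk4*. Their adjusted p lay at 0.329 to 0.721, and the exact permutation p was 0.00667 for each except *Col4a3* at 0.0133. These genes were picked for their lack of overlap, which by itself puts the permutation p at or near its smallest possible value. That p is therefore no separate evidence for them.

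**Figure D5:**
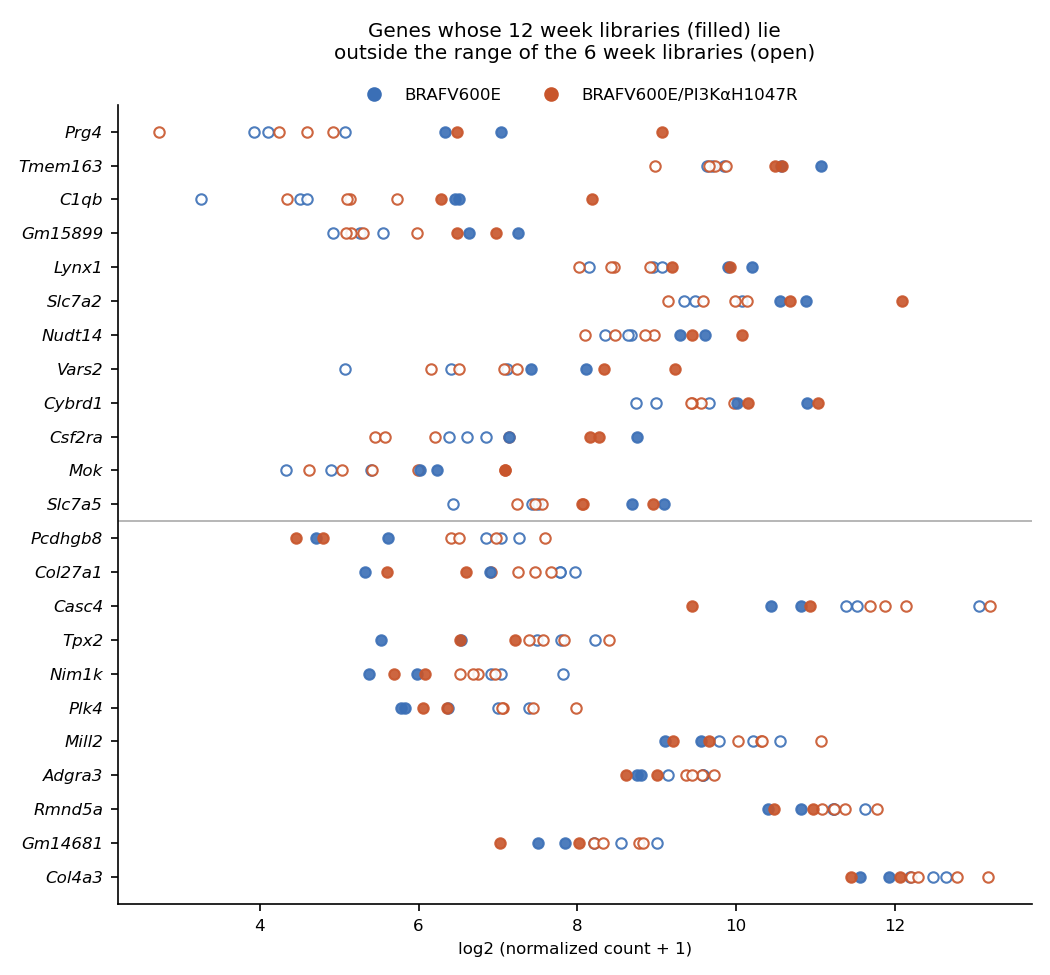
Log2 (normalized count + 1) (x axis) of the genes with the smallest p whose 12 week libraries (filled) all lie above (upper block) or below (lower block) the 6 week libraries (open), with BRAFV600E in blue and BRAFV600E/PI3KαH1047R in orange. The gap between the groups is widest for *Prg4*, from 32.8 normalized counts at 6 weeks to 79.6 at 12 weeks, and in the lower block for *Pcdhgb8*, from 84.2 to 47.8.

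At 2 weeks p.i. there was 1 BRAFV600E library and 2 BRAFV600E/PI3KαH1047R libraries in the same table, and their values are given with no test. *Sftpc* had 197370 normalized counts in BRAFV600E at 2 weeks and 38864 and 21173 in BRAFV600E/PI3KαH1047R, both BRAFV600E/PI3KαH1047R values lying below every library at 6 and 12 weeks. *Rtkn2* had 5587, 8612 and 9312 at 2 weeks and *Col4a3* had 6805, 18137 and 13760, so for *Rtkn2* all 3 values lay above all 11 later ones. *Mki67* had 439, 599 and 366, of which the first and the last lay below every later library. *Chil3* had 287 in BRAFV600E and 6974 and 597 in BRAFV600E/PI3KαH1047R, of which the first and the last lay below every later library.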

How the data were processed

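RNA of tdTomato+ cells sorted from 1 animal per library was made into libraries with a Nugen Ovation Ultralow kit and sequenced single-end. The authors' deposited table holds normalized counts per gene, a signal that is not in whole reads. Per the labels' processing notes and the study's methods FastQC, Salmon and DESeq2 were used with GRCm38, and versions were not given in the sources used here. Depth in reads is therefore unknown: 20.7% to 41.5% of values under 20 lay within 0.01 of a whole multiple of a library's step, so no count test was run. Columns of the authors' own comparisons, which hold fold changes and p-values, and tables of other groups were not used.

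Genes with a mean of at least 10 normalized counts over the 11 libraries were tested as log2 (normalized count + 1) with limma 3.58.1 (trend, R 4.3.3), with week and genotype as factors, and as a week effect inside each genotype with their difference. A log2 difference on this scale understates the change of low genes. P-values were adjusted by the Benjamini-Hochberg method, and exact two-sided permutation tests used the 150 assignments of week labels within genotype. P-values measure the spread between these animals. Tables were built with pandas 2.3.3, numpy 2.4.6 and scipy 1.17.1 under Python 3.11.15 and plots with matplotlib 3.10.9, and the fit was tested on simulated data.

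The comparison and the 50 gene lists were chosen with earlier results of these data known, and lists are described by counts and medians without a test. Genes named were key members of the lists, genes passing the adjusted threshold, and up to 12 genes each way with the smallest p among those with a mean of at least 40 whose groups did not overlap; other list members were named after their values were seen. Coding sequences and loci came from the GENCODE annotation and genome of GRCm38. Alternatives were another pseudocount, other filters, quantile normalization, a replicate block, limma without trend, sex as labelled, no genotype term, all 14 libraries of the table, and libraries left out. A few genes are not reported here.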

Additional observations from a re-analysis of the deposited data

Results flagged for a closer look

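In groups of 4 to 7 libraries the highest or lowest value stood apart from the rest by Dixon's ratio in 22 of 219 tests over list levels and named genes, where chance gives about 1 in 20. The tests share libraries and genes and are not independent, so the 22 cannot be read as an excess over that rate. Levels are the mean log2 (normalized count + 1) of a list's members or of 1 gene. BRAFV600E/PI3KαH1047R replicate 1 at 6 weeks was low in the gastric list (3.83), in the cell cycle list (5.85, both among all libraries at 6 weeks and among those of its genotype) and in the EGF receptor and ligand list (7.46). It was high in the AP-1 list (9.69), the endothelial list (12.1), the fibroblast list (10.8) and the integrin and basement membrane list (11.4). *Tmem163* was low in it (8.98). Among the libraries at 12 weeks, BRAFV600E/PI3KαH1047R replicate 1 was high in the chemokine list (7.85), the alveolar macrophage list (9.74) and *C1qb* (8.19).

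BRAFV600E replicate 1 at 12 weeks was low in the DNA replication list (6.18) and high in the T and NK lymphocyte list (5.68), the EGF receptor and ligand list (8.42) and *Tmem163* (11.1). BRAFV600E replicate 1 at 6 weeks was low in the monocyte and macrophage list (6.72) and high in the housekeeping list (12.0) and *Nim1k* (7.82). BRAFV600E/PI3KαH1047R replicate 2 at 6 weeks was high in the SREBP list of cholesterol and lipid synthesis (9.58). BRAFV600E/PI3KαH1047R replicate 3 at 6 weeks was high in the lysosome list (10.05) and low in the ribosomal protein list (9.14).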

How the results depend on the processing

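With both genotypes together, 0 genes passed an adjusted p of 0.05 by limma under every alternative run, with 626 (without BRAFV600E/PI3KαH1047R replicate 1 at 12 weeks) to 1559 (without BRAFV600E replicate 1 at 12 weeks) at an unadjusted p under 0.05 when single libraries were left out, and 719 without both BRAFV600E/PI3KαH1047R libraries at 12 weeks. Inside BRAFV600E, leaving out single libraries gave 615 to 1125 at an unadjusted p under 0.05. Inside BRAFV600E/PI3KαH1047R it gave 2 to 15 adjusted (15 without BRAFV600E/PI3KαH1047R replicate 2) and 299 to 1503 unadjusted, and the difference between genotypes 0 to 2 and 381 to 876. Without a filter on low values BRAFV600E had 1 adjusted call (*Gm15387*) and 1128 unadjusted, BRAFV600E/PI3KαH1047R 5 and 1295, and the difference between genotypes 969 unadjusted. Limma without trend called 1 gene, *Gm10260*, for that difference. Without the 2 libraries that stand apart, chosen after seeing the data, BRAFV600E/PI3KαH1047R had 435 unadjusted calls. Replicate numbers did not pair the libraries (correlations of deviations -0.230, -0.0542, -0.214 and -0.0826), and a replicate block gave 0 adjusted calls with both genotypes together, 909 unadjusted, and 0 adjusted calls inside BRAFV600E/PI3KαH1047R. Without the 2 libraries that stand apart the list medians of club cell, SREBP and engineered genes were 0.26, 0.0507 and 0.14. Leaving out single libraries moved the SREBP median from -0.16 to 0.0310 and the complement median from 0.39 to 0.75. Without both BRAFV600E/PI3KαH1047R libraries at 12 weeks *Marco* was -0.48, *Isg15* -0.47, *Vwf* -0.48 and *Rgs5* -0.16. Without the 2 libraries that stand apart *Marco* was -0.0232, and with single libraries left out *Marco* ran from -0.0377 to 0.77 and *Isg15* from -0.0629 to 1.16. The cause was not tested, except that settings with fewer libraries or more genes change the test by construction. Quantile normalization shifted the median of all genes to 0.02. The number of libraries limits the precision, with a median SE of 0.370.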

Other observations

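Of the other gene groups, 14 of 23 CDK inhibitor and p53 genes were higher at 12 weeks with a median log2 difference of 0.12, which was 0.14 inside BRAFV600E and -0.06 inside BRAFV600E/PI3KαH1047R. Of 23 ER chaperone and unfolded protein genes 17 were higher with a median of 0.10, with 20 higher inside BRAFV600E (0.22) and 13 lower inside BRAFV600E/PI3KαH1047R (-0.07). Heat shock genes had a median of 0.02, of 0.23 inside BRAFV600E and of -0.40 inside BRAFV600E/PI3KαH1047R. Of 29 TCA cycle and fatty acid oxidation genes 18 were higher with a median of 0.06, of 0.06 inside BRAFV600E and of 0.05 inside BRAFV600E/PI3KαH1047R. Of 22 hypoxia targets 17 were higher with a median of 0.27, but inside BRAFV600E 11 were higher and 11 lower (0.11) and inside BRAFV600E/PI3KαH1047R 14 were higher and 8 lower (0.41). SREBP targets had a median of -0.13, of 0.02 inside BRAFV600E and of -0.20 inside BRAFV600E/PI3KαH1047R, and AP-1 and immediate early genes one of 0.14, which was 0.33 inside BRAFV600E and -0.31 inside BRAFV600E/PI3KαH1047R. Ribosomal protein genes had a median of 0.00, with 17 of 34 higher, of -0.10 inside BRAFV600E and of 0.12 inside BRAFV600E/PI3KαH1047R. With 1 library left out the sign turned for the CDK inhibitor list (-0.05, without BRAFV600E/PI3KαH1047R replicate 2 at 12 weeks), the ER list (-0.01) and the heat shock list (-0.14, both without BRAFV600E replicate 2 at 12 weeks), the TCA list (-0.01, without BRAFV600E/PI3KαH1047R replicate 2 at 12 weeks) and the SREBP list (0.03, without BRAFV600E/PI3KαH1047R replicate 1 at 12 weeks). The ribosomal median ran from -0.09 to 0.12 and the AP-1 median from 0.02 to 0.29.

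Among immune cells other than macrophages, 17 of 25 T and NK lymphocyte genes, 8 of 12 neutrophil genes, 7 of 11 dendritic cell genes and 5 of 14 B lymphocyte and plasma cell genes were higher, with medians of 0.18, 0.50, 0.12 and -0.06. Inside BRAFV600E these medians were 0.51, 0.38, 0.40 and 0.21 and inside BRAFV600E/PI3KαH1047R -0.09, 0.29, 0.00 and -0.26, so the T and NK and the B lymphocyte lists went opposite ways in the genotypes, a difference that was not tested. Leaving out 1 library turned the T and NK median to -0.04 (without BRAFV600E replicate 1 at 6 weeks), the dendritic median to -0.12 (without BRAFV600E/PI3KαH1047R replicate 1 at 6 weeks) and the B lymphocyte median to 0.19 (without BRAFV600E/PI3KαH1047R replicate 1 at 12 weeks). The neutrophil median was 0.21 without BRAFV600E replicate 2 at 12 weeks and 0.13 without the 2 libraries that stand apart. None of the T and NK, neutrophil and B lymphocyte genes had an unadjusted p under 0.05, and 1 dendritic cell gene was lower at that threshold. Of all genes 3.06% were higher and 3.56% lower, so lists this small would give few calls in any case. In 14 genes both BRAFV600E/PI3KαH1047R libraries at 12 weeks were listed at 0 while all 4 at 6 weeks were above 0. In 189 tested genes the values repeat those of another row.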
